A study of Mus musculus with 4 samples.

Results

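Nuclear genes that encode subunits of the mitochondrial respiratory chain and of ATP synthase were examined in bulk liver tumours of mice with and without a liver deletion of Tfrc, which encodes the cell-surface receptor for iron-loaded transferrin. Members were chosen by a rule on their names, which was set with earlier results of these data known. They are protein-coding rows off the mitochondrial chromosome, without pseudogene names. Their symbols are Sdha, Sdhb, Sdhc, Sdhd or Cyc1, or start with Uqcr, Cox4 to Cox8 or Atp5. Symbols that start with Nduf, a letter a, b, c, s or v and then a digit were taken as well. This gave 86 of 55487 rows of the count table, with 37 in complex I, 4 in complex II, 9 in complex III, 18 in complex IV and 18 in complex V. They carry 85 symbols, because Atp5o has a second identifier, which was at 0 counts in every library. Of the 86 rows, 80 passed the filter on low counts.

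Complexes I to IV pass electrons from NADH and succinate to oxygen, and all of them but complex II pump protons across the inner mitochondrial membrane. Complex V lets the protons flow back and makes ATP. Iron enters the chain as iron-sulfur clusters in complexes I, II and III and as heme in complexes II, III and IV. All complexes but complex II also hold subunits encoded by mitochondrial DNA, so both genomes contribute to them. Hepatocytes are rich in mitochondria and draw on this chain for gluconeogenesis and the urea cycle.

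The knockout group held tumours of 2 Alb-cre H11-myc mice with Tfrc deleted in the liver. The wild type group held tumours of 2 Alb-cre H11-myc mice without the deletion, so the Cre and the Myc transgene were common to both groups. The albumin promoter is active in hepatocytes and their precursors, so blood, vessel and stromal cells of the tumour keep Tfrc. Each library is from its own mouse, and the sources used here do not give the ages. Library totals lay between 15918349 and 17052943 counts. Tfrc had 333 and 204 CPM (counts per 1e6 reads after TMM scaling) in the libraries labelled knockout and 459 and 234 CPM in wild type. Knockout replicate 1 lay above wild type replicate 2, so this gene gave no check of the labels (log2 fold change -0.37, SE 0.45, edgeR adjusted p = 0.833), and all directions given here are those of libraries labelled knockout. Wild type replicate 2 stood apart, at 86.6 on a first principal component that put the other 3 libraries between -38.5 and -11.2, and many results are therefore also given without it. Alb, the main secreted product of hepatocytes, was present in all libraries at 5366 to 29408 CPM.

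Most nuclear subunit genes had a lower level in the knockout libraries by a small amount, and no member passed the adjusted threshold of edgeR. Of 80 tested members, 69 had a log2 fold change below 0, against 49.6% of all 16310 tested genes. The median log2 fold change was -0.34 over the members and 0.01 over all tested genes. By edgeR's quasi-likelihood test 0 members had an adjusted p under 0.05, with a smallest value of 0.545, and 0.0% of all tested genes were called. At an unadjusted p under 0.05 there were 7 members (8.75%), against 8.3% of all tested genes. All 7 were lower in knockout, where 4.35% of all tested genes were lower at this level and 3.95% were higher. DESeq2 called 1 member, Cox4i2, against 0.907% of all tested genes, and limma-voom called 0 members, against 0.00613%. In 31 members (38.8%) both knockout values lay below both wild type values, against 20.1% of all tested genes. In 2 members they lay above, against 21.9%. In bulk tissue, fewer cells of a type and less RNA per cell cannot be told apart.

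**Figure D1:**
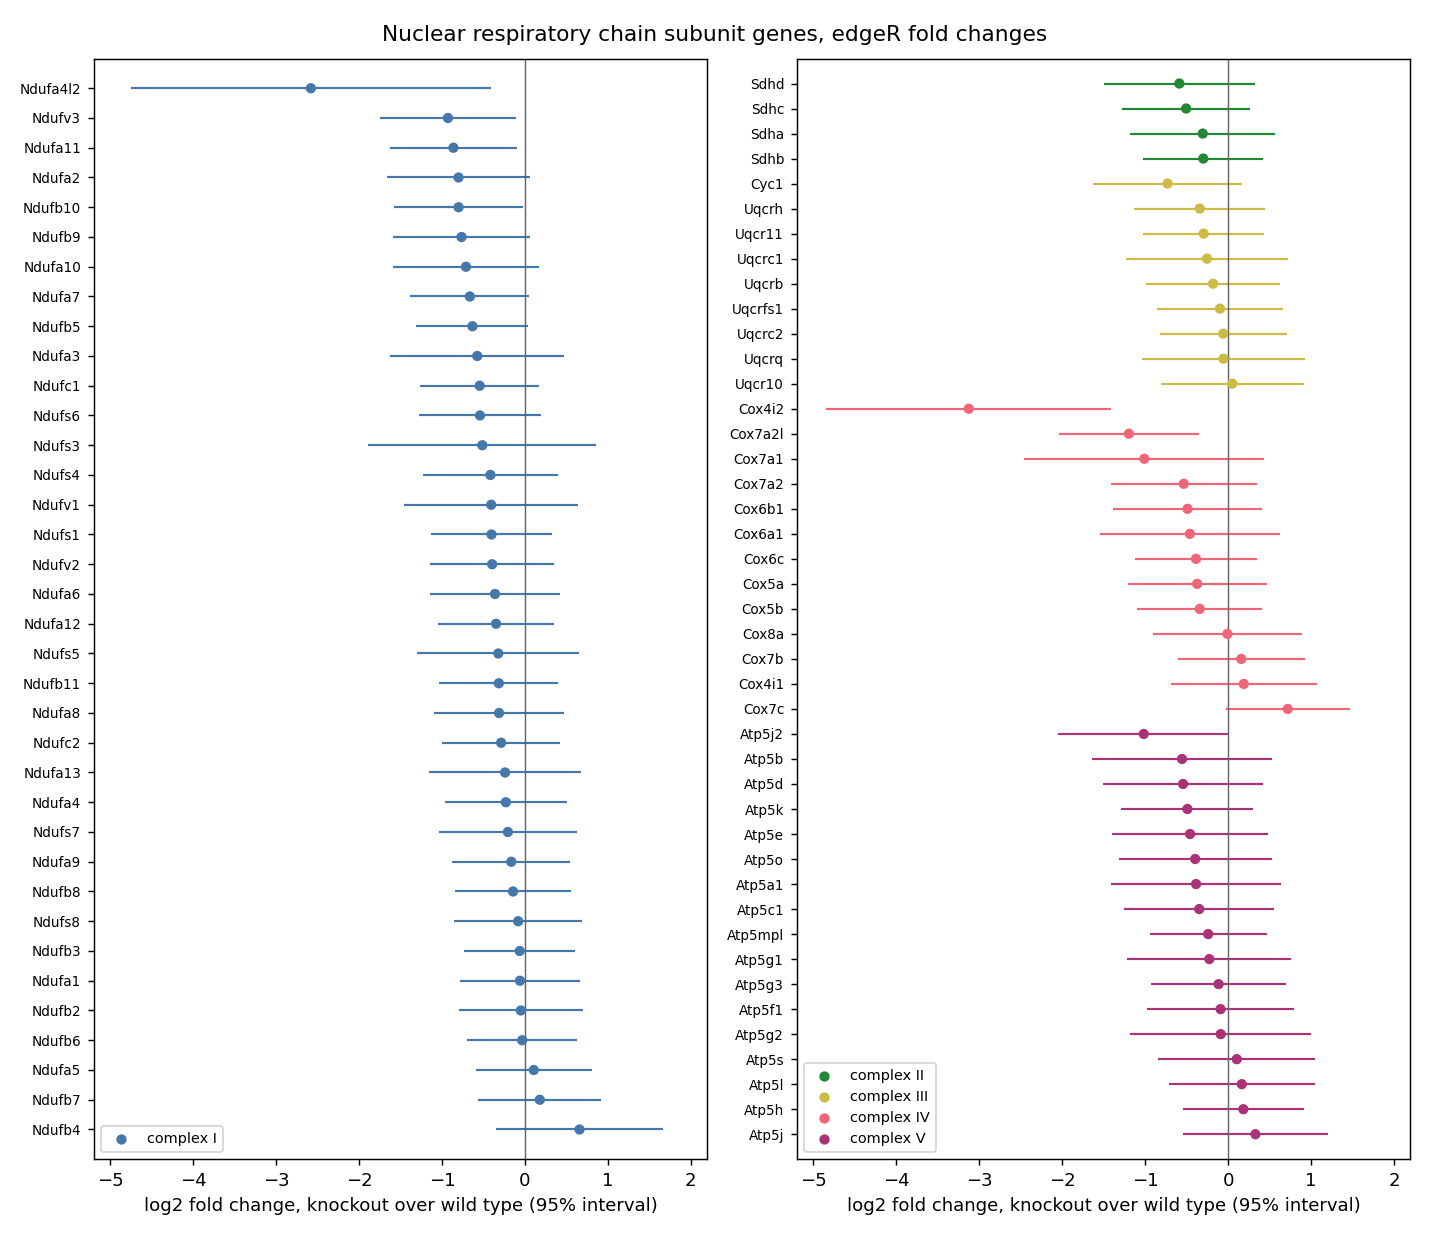
Log2 fold change of 79 of the 80 tested subunit genes, knockout over wild type, on the x axis, with genes on the y axis coloured by complex (edgeR, points are estimates and bars are 95% intervals, n = 2 libraries per group). Of 79 points 68 lie left of 0, and the farthest left are Cox4i2 at -3.13 and Ndufa4l2 at -2.58.

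Much of the lower level came with wild type replicate 2. The summed level of the 80 tested members was 13959 and 13179 CPM in the knockout libraries and 14592 and 19873 CPM in wild type replicates 1 and 2, so the last library was high and the other 3 were close together. It was the highest library for 64 of 80 members (80.0%), against 31.4% of all tested genes. Without it the median of the members was -0.07 and 50 of 80 were below 0. The median was -0.58 without wild type replicate 1, -0.32 without knockout replicate 1 and -0.33 without knockout replicate 2.

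Markers of other cell types also varied between these libraries. The 10 hepatocyte markers summed to 39442 and 36076 CPM in knockout and to 17100.2 and 52427 CPM in wild type, so wild type replicate 2 was highest here too, with 4 of 10 below 0 in log2 fold change (2 without that library). The 9 macrophage markers summed to 407 and 260.1 CPM in knockout and 743 and 1006 CPM in wild type, with 9 of 9 below 0, and the 7 pan-leukocyte markers to 216 and 139.9 CPM in knockout and 406 and 387 CPM in wild type, with 6 of 7 below 0. The 7 endothelial markers summed to 116 and 104 CPM in knockout and 156 and 185 CPM in wild type, with 5 of 7 below 0. No marker of these lists was at 0. The erythroid markers summed to 211 and 150.0 CPM in knockout and 955 and 2168 CPM in wild type, with 5 of 5 tested genes below 0. The 8 T cell markers leaned the other way and summed to 17.5 and 17.9 CPM in knockout and 15.7 and 8.69 CPM in wild type, with 7 of 8 above 0 (median 0.65, or 0.23 without wild type replicate 2). In 4 of them both knockout values were the highest, where 21.9% of all tested genes had this order. Without wild type replicate 2 the markers below 0 numbered 7 of 9 for macrophages, 7 of 7 for leukocytes, 5 of 7 for endothelium and 5 of 5 for erythroid cells. The part of these cells in the level of the subunit genes was not tested.

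**Figure D2:**
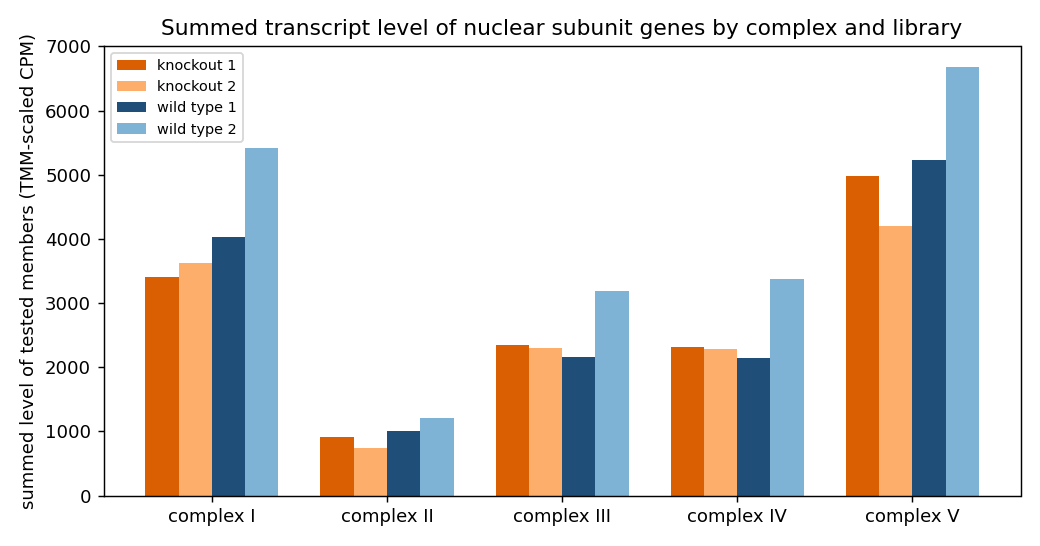
Summed TMM-scaled CPM of the tested members on the y axis for complexes I to V on the x axis, with a bar for each library. In complexes III and IV the knockout bars (2345 and 2308 CPM, and 2313 and 2288 CPM) stand above wild type replicate 1 (2165 and 2139.7 CPM) and below wild type replicate 2 (3194 and 3377 CPM).

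Complex I takes electrons from NADH. All 37 of its members were tested, 34 with a log2 fold change below 0 and 3 above (median -0.36, or -0.10 without wild type replicate 2). Their summed level was 3406 and 3626 CPM in knockout and 4037 and 5422 CPM in wild type, so the groups did not overlap. In 18 members both knockout values were the lowest, against 20.1% of all tested genes, and in Ndufb4 both were the highest, against 21.9%. Members with an unadjusted p under 0.05 included Ndufa4l2, Ndufv3, Ndufa11 and Ndufb10.

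The 7 core subunits of complex I that are encoded in the nucleus form part of its catalytic core. Its subunits encoded by mitochondrial DNA are treated further on. All 7 were below 0 in log2 fold change (median -0.40, against -0.34 for the 30 accessory members). Without wild type replicate 2 these medians were 0.02 and -0.11. Ndufs1, the largest iron-sulfur subunit, had 142 and 128 CPM in knockout and 199.6 and 157 CPM in wild type without overlap (log2 fold change -0.40, SE 0.31). Its exons overlap those of Eef1b2 on the opposite strand, which held 8961 and 5397 counts in knockout and 7638 and 11167 in wild type. Exons of other genes cover 6.2% of the exon bases of Ndufs1. Reads of overlapping genes cannot be told apart without strand.

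Ndufv2, an iron-sulfur subunit of the arm that oxidises NADH, had 137 and 166 CPM in knockout and 178 and 222 CPM in wild type and did not overlap. Ndufv1, which binds NADH and flavin, had 109 and 61.1 CPM in knockout and 75.9 and 149.7 CPM in wild type. There wild type replicate 1 lay between the knockout values, and the log2 fold change of -0.41 turned to 0.17 without wild type replicate 2. The iron-sulfur subunit genes Ndufs7 and Ndufs8, at -0.21 and -0.08, turned to 0.21 and 0.24 in the same way. Ndufs3, a core subunit gene, was counted at only 1.95 to 4.15 CPM, and it has a pseudogene that is treated further on.

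Among the accessory subunits of complex I, Ndufv3 of the NADH-oxidising arm had 75.5 and 98.7 CPM in knockout and 132 and 199.9 CPM in wild type. The knockout values were the lowest (log2 fold change -0.93, SE 0.35, edgeR adjusted p = 0.588), and the value was -0.60 without wild type replicate 2. Ndufa11, a membrane-arm subunit, had 34.2 and 45.3 CPM in knockout and 61.3 and 83.2 CPM in wild type (log2 fold change -0.86, SE 0.32). Ndufb10, also of the membrane arm, had 79.3 and 106 CPM in knockout and 138 and 185 CPM in wild type (log2 fold change -0.80, SE 0.33). In both genes the groups did not overlap, and without wild type replicate 2 the log2 fold changes were -0.63 and -0.57. The highest level per length in complex I was that of Ndufa2, with a mean of 273 FPKM (fragments per kilobase of gene and 1e6 reads, as deposited). Over the 14 Ndufa genes the median log2 fold change was -0.35 with 13 below 0, and over the 10 Ndufb genes it was -0.10 with 8 below 0. Without wild type replicate 2 these medians were -0.11 and -0.05.

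Ndufa4l2 is a paralog of Ndufa4 that responds to hypoxia, and Ndufa4 itself is now counted with complex IV. Ndufa4l2 (chromosome 10, 127514967 to 127517154, mm10) had 5.85 and 0.944 CPM in knockout and 9.02 and 31.8 CPM in wild type. Values spread widely within each group, though the groups did not overlap (log2 fold change -2.58, SE 0.91, edgeR adjusted p = 0.572). The log2 fold change was -4.46 without knockout replicate 1, -1.80 without knockout replicate 2 and -1.40 without wild type replicate 2. Ndufa4 had 152 and 134 CPM in knockout and 146 and 189 CPM in wild type, and its groups overlapped (log2 fold change -0.23, SE 0.31, or -0.03 with wild type replicate 2 left out). Per length, Ndufa4l2 made up 5.02% and 0.96% of the FPKM of this pair in knockout and 7.81% and 18.8% in wild type. Exons of Ndufa4l2 overlap those of Shmt2 on the opposite strand, over 2.9% of the exon bases of Ndufa4l2. Shmt2 held 5046 and 3517 counts in knockout and 5290 and 6324 in wild type.

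**Figure D3:**
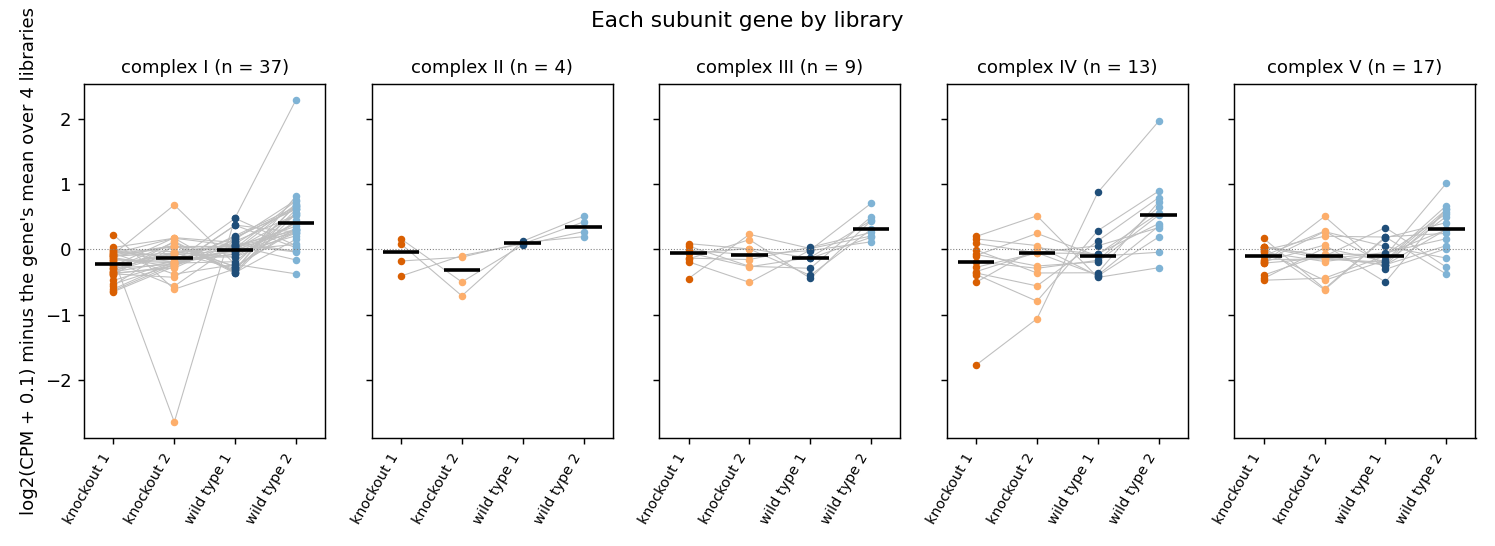
Log2(CPM + 0.1) of each tested member minus its mean over the 4 libraries on the y axis, by library on the x axis, with a panel for each complex (points are genes, grey lines join the points of a gene, black bars are medians). In every panel the median of wild type replicate 2 is the highest, and the lowest points are Ndufa4l2 in knockout replicate 2 and Cox4i2 in knockout replicate 1.

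Complex II oxidises succinate and is shared with the citric acid cycle. Its 4 genes all had a log2 fold change below 0, between -0.59 and -0.30 (median -0.41), and the median was -0.29 with either wild type replicate 2 or knockout replicate 2 left out. Sdhb, the iron-sulfur subunit, had 201 and 209.6 CPM in knockout and 245 and 261 CPM in wild type, with replicates close together and no overlap (log2 fold change -0.30, SE 0.31). Sdhc, a membrane anchor that helps bind heme, had 161 and 199.6 CPM in knockout and 226 and 285 CPM in wild type, also without overlap (log2 fold change -0.51, SE 0.33, or -0.33 with wild type replicate 2 left out). In its partner Sdhd, at 224 and 129 CPM against 230.5 and 300.0 CPM in wild type, knockout replicate 1 nearly reached wild type replicate 1. Its log2 fold change was -0.59 (SE 0.38), at -0.24 without knockout replicate 2, -1.07 without knockout replicate 1 and -0.38 without wild type replicate 2. Sdha, the flavoprotein, had 333 and 211 CPM in knockout and 312 and 360.0 CPM in wild type and overlapped. The smallest adjusted p in complex II was 0.683 (edgeR), and 0 of its genes had an unadjusted p under 0.05.

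Complex III passes electrons from ubiquinol to cytochrome c. Its median log2 fold change, -0.18 over 9 genes of which 8 were below 0, was the closest to 0 of the 5 complexes over all 4 libraries. Without wild type replicate 2 it was -0.03, and that of complex V was closer, at -0.01. Cyc1, the heme-bearing cytochrome c1, had 227 and 183 CPM in knockout and 258 and 423 CPM in wild type. The groups did not overlap and wild type replicate 2 was far above the rest (log2 fold change -0.73, SE 0.38, edgeR adjusted p = 0.634, and -0.33 without that library). The Rieske iron-sulfur protein gene Uqcrfs1 had 304 and 290.4 CPM in knockout and 303 and 333 CPM in wild type, values close to each other (log2 fold change -0.10, 95% interval -0.86 to 0.66, and -0.03 without wild type replicate 2). The core protein genes Uqcrc1 and Uqcrc2 had -0.25 and -0.06, which turned to 0.19 and 0.11 without wild type replicate 2. The small subunit gene Uqcr11 was the other gene without overlap, at 195 and 192 CPM against 219 and 257 CPM in wild type. Both knockout values were thus the lowest in 2 of 9 genes, where 20.1% of all tested genes had this order. Uqcrh, the hinge protein gene, had 142 and 122 CPM in knockout and 134 and 199 CPM in wild type with overlap (log2 fold change -0.34, and -0.03 without wild type replicate 2).

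Complex IV, cytochrome c oxidase, reduces oxygen to water. Several of its nuclear subunits exist as a general form and as forms typical of muscle, lung or testis. Of 18 members 13 were tested, 10 with a log2 fold change below 0 and 3 above (median -0.39, or -0.07 without wild type replicate 2). The general forms held nearly all of the level per length. Cox4i1 made up 97.4% to 99.8% of the FPKM of the Cox4i genes and Cox7a2 98.2% to 98.8% of that of Cox7a1 and Cox7a2. Among the untested members, the muscle form Cox6a2 had 4 to 7 counts per library and the testis form Cox6b2 had 4 to 11. Cox7b2, Cox8b and Cox8c had 0 counts in all 4 libraries, where a floor of 3 counts is 0.163 to 0.195 CPM.

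Cox4i2, the paralog of Cox4i1 best known from lung, had the most negative log2 fold change of all tested members. The gene (chromosome 2, 152754173 to 152765037, mm10) had 0.308 and 0.567 CPM in the knockout libraries and 2.45 and 5.32 CPM in wild type, from 5 and 9 counts in knockout and 45 and 82 in wild type. Both knockout values were low and lay below both wild type values (log2 fold change -3.13, SE 0.72, 95% interval -4.85 to -1.41, edgeR adjusted p = 0.545, DESeq2 adjusted p = 0.0414). By edgeR the log2 fold change was -2.47 when wild type replicate 2 was left out, and -3.62 when replicate 1 was. Cox4i1 had 441 and 411 CPM in knockout and 298 and 450.0 CPM in wild type, with overlap (log2 fold change 0.19, SE 0.37). With replicate 1 of wild type left out it was -0.12, and with replicate 2 left out 0.52.

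Markers of stellate cells and fibroblasts were set beside Cox4i2 and Ndufa4l2. Of 8 markers 7 had a log2 fold change below 0, none was at 0 counts, and their summed level was 637 and 1171 CPM in knockout and 1409 and 1226 CPM in wild type. Their median log2 fold change was -0.55, but -0.25 without knockout replicate 1, -1.17 without knockout replicate 2 and -0.70 without wild type replicate 2. Acta2, the smooth muscle actin, had 27.3 and 36.2 CPM in knockout and 89.6 and 78.4 CPM in wild type, and the intermediate filament gene Des had 5.48 and 7.49 CPM against 14.1 and 19.9 CPM in wild type. In both genes the groups were apart (log2 fold changes -1.40 and -1.39, edgeR adjusted p = 0.545 and 0.547). The collagen genes Col1a1 and Col3a1 were also lower in both knockout libraries, at -0.61 and -0.50. The groups overlapped for Col1a2, Pdgfrb, Dcn and Lum, at -0.41, -0.88, -0.01 and 0.33. The proteoglycan genes Dcn and Lum were highest in knockout replicate 2, at 16 and 60.2 CPM in knockout and 19.5 and 57.3 CPM in wild type for Dcn and 7.76 and 32.1 CPM in knockout and 6.58 and 25.3 CPM in wild type for Lum. The part of these cells in the level of Cox4i2 and Ndufa4l2 was not tested.

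Cox7a2l, a relative of Cox7a2 that takes part in joining complexes III and IV into supercomplexes, was a more abundant gene whose groups were apart. The gene (chromosome 17, 83501918 to 83517330, mm10) had 109 and 82.4 CPM in knockout and 174 and 265 CPM in wild type. All knockout values lay below wild type, at 95.9 ± 19.1 against 219.7 ± 64.2 CPM (SD, n = 2 each). This order held for 20.1% of all tested genes. The log2 fold change was -1.20 (SE 0.36, edgeR adjusted p = 0.547), or -0.86 when wild type replicate 2 was left out. With replicate 1 of wild type left out it was -1.50, in a fit where wild type replicate 2 alone stood for its group. Cox7a2 had 168 and 157 CPM in knockout and 170.5 and 299.9 CPM in wild type, so 3 libraries were close and wild type replicate 2 was high (log2 fold change -0.53, SE 0.37, and -0.07 without that library). The muscle form Cox7a1 had 1.17 and 1.01 CPM in knockout and 1.69 and 2.72 CPM in wild type (log2 fold change -1.01, SE 0.61, or -0.63 with wild type replicate 2 left out). The 10 striated muscle markers summed to 1.66 and 3.65 CPM in knockout and 5.71 and 5.71 CPM in wild type, with Myh1, Myh6, Myl1 and Mb at 0, and their part in Cox7a1 was not tested.

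Most of the other tested genes of complex IV overlapped between the groups. The structural subunit genes Cox5a and Cox5b had log2 fold changes of -0.37 and -0.34, which were 0.03 and -0.09 without wild type replicate 2. Cox6a1, the member with the highest level per length at 391 FPKM, had 447 and 350.4 CPM in knockout and 351 and 746 CPM in wild type. Knockout replicate 2 and wild type replicate 1 nearly coincided there, and wild type replicate 2 was high (log2 fold change -0.46, SE 0.46, and 0.18 without that library). Cox6b1, a subunit on the side that binds cytochrome c, had 165 and 237 CPM in knockout and 222 and 343 CPM in wild type, and the small subunit gene Cox6c had 120.5 and 148 CPM against 158 and 192 CPM in wild type without overlap. Cox8a and Cox7b, also small subunits, had -0.01 and 0.16 (SE 0.38 and 0.32), or 0.41 and 0.19 without wild type replicate 2. Cox7c was higher in both knockout libraries, at 31 and 38.7 CPM against 20.1 and 22.2 CPM in wild type (log2 fold change 0.72, SE 0.32, edgeR adjusted p = 0.612). Pseudogenes similar to Cox7c held more counts than the gene, as given further on.

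**Figure D4:**
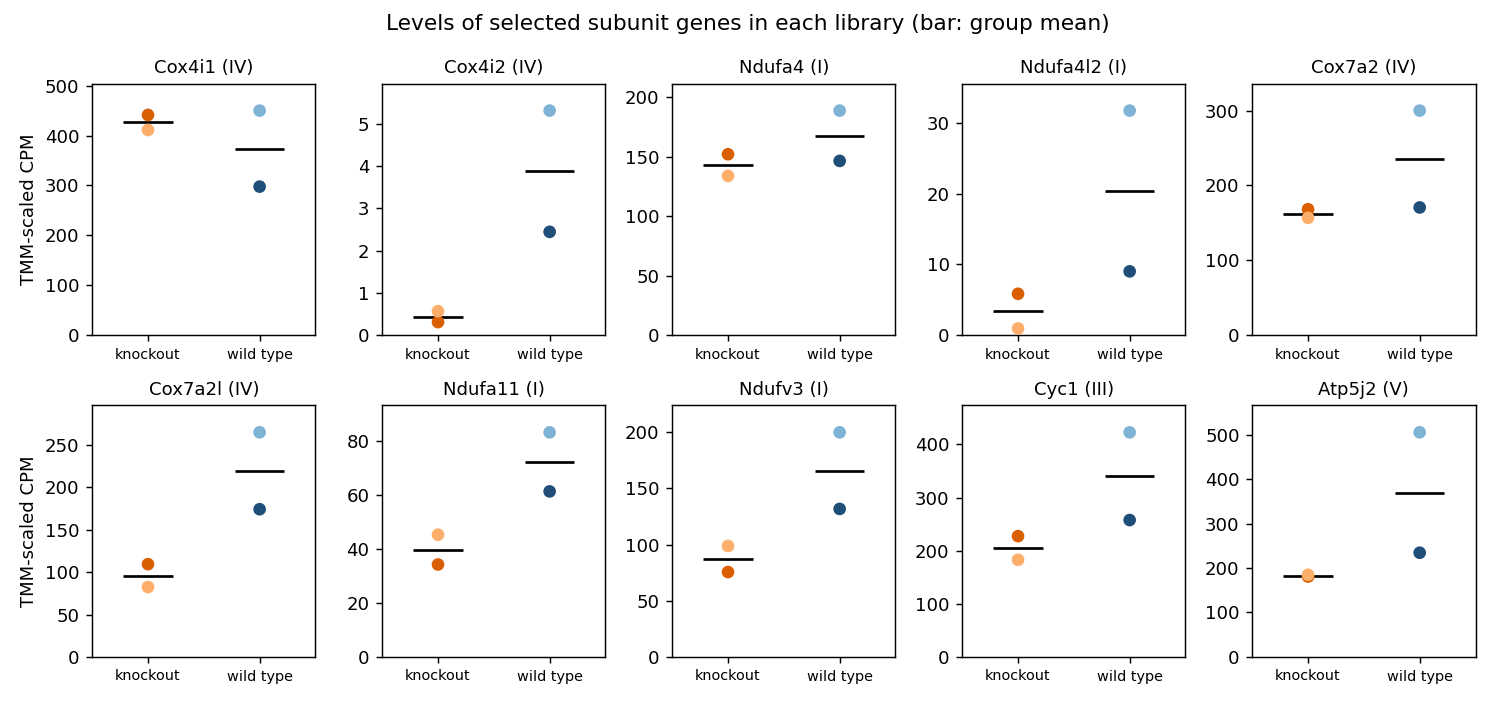
TMM-scaled CPM on the y axis of 10 subunit genes in each library (points, darker for replicate 1) with the group mean (bar), knockout left and wild type right, and the complex in brackets. Cox4i2, Ndufa4l2, Cox7a2, Cox7a2l, Ndufa11, Ndufv3, Cyc1 and Atp5j2 lie lower in both knockout libraries, while Cox4i1 and Ndufa4 overlap between the groups.

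Complex V is ATP synthase, with a catalytic head, stalks and a membrane rotor. Of 18 members 17 were tested, 13 with a log2 fold change below 0 and 4 above (median -0.24, or -0.01 without wild type replicate 2). The catalytic subunit gene Atp5b had 1369 and 873 CPM in knockout and 1516 and 1779 CPM in wild type. The groups did not overlap, but the knockout values lay far apart (log2 fold change -0.56, SE 0.46, edgeR adjusted p = 0.746), and the value was -0.95 without knockout replicate 1 and -0.27 without knockout replicate 2. In its partner in the head, Atp5a1, at 937 and 549 CPM against 953 and 989 CPM in wild type, knockout replicate 1 was close to wild type (log2 fold change -0.39, SE 0.43). It was -0.85 without knockout replicate 1 and -0.05 without knockout replicate 2. Atp5j2, a membrane subunit, had 181 and 185 CPM in knockout and 234 and 506 CPM in wild type. The knockout values nearly coincided and wild type replicate 2 was high (log2 fold change -1.02, SE 0.43, edgeR adjusted p = 0.604). Its log2 fold change was -0.36 when wild type replicate 2 was left out and -1.50 when replicate 1 was. Atp5d, of the central stalk, and Atp5k, a membrane subunit, had -0.54 (SE 0.41) and -0.49 (SE 0.34) and overlapped, and without wild type replicate 2 they had -0.06 and -0.14. The rotor ring is encoded by Atp5g1, Atp5g2 and Atp5g3, which give the same mature protein. Atp5g3 held 88.5% to 93.1% of the FPKM of these genes and had 429 and 379 CPM in knockout and 405 and 469.8 CPM in wild type (log2 fold change -0.11, SE 0.34, or 0.00 with wild type replicate 2 left out). This share is uncertain, because pseudogenes similar to Atp5g1 and Atp5g2 held more counts than these genes, as given further on. With them added, Atp5g1 had 326 and 309 CPM in knockout and 261 and 551 CPM in wild type. Atp5g2 then had 266 and 209 CPM in knockout and 310 and 544 CPM in wild type.

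Pseudogenes of some subunit genes were counted more than the genes themselves. A pseudogene was called similar where its annotated transcript matched at least 100 bases of the gene's transcript at 95% identity or more. Such a pseudogene was found for 21 members, and for 9 of these the pseudogenes held more counts than the gene. Over the 4 libraries Atp5g2 had 332 counts and its pseudogenes 21393, most of them in Gm10175. Atp5l, a membrane subunit gene of complex V, had 1089 and 14793, most in Gm10221. Cox7c had 1830 and 13935, most in Gm12338. The genes at the low end per length in complexes I and V, Ndufs3 with 0.757 FPKM and Atp5l with 2.14 FPKM, are both in this set. Ndufb4 had 595 counts and 5562 in pseudogenes, most in Ndufb4c, and Ndufs3 had 175 and 2171. The others were Atp5g1, Atp5h, Ndufa12 and Ndufs5. The sources used here do not say how reads that match several places were counted, so the levels of these genes are uncertain.

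Cox7c and Ndufb4, the only members with both knockout values above both wild type values, belong to this set. Ndufb4, an accessory subunit of complex I, had 8.25 and 14 CPM in knockout and 7.39 and 6.68 CPM in wild type (log2 fold change 0.66, SE 0.42, and 0.23 without knockout replicate 2). With its pseudogenes added it had 76.3 and 113 CPM in knockout and 93.4 and 91.3 CPM in wild type, with overlap and a log2 fold change of 0.03 (SE 0.32). Cox7c with its pseudogenes had 209 and 284 CPM in knockout and 223 and 244 CPM in wild type, a log2 fold change of 0.08 (SE 0.33). In both sums the groups overlapped. Atp5g2 moved the other way, to -0.85 (SE 0.40) in place of -0.09, with 266 and 209 CPM in knockout and 310.2 and 544 CPM in wild type. With pseudogene counts added, the median of the tested members was -0.34 and 70 of 80 were below 0.

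**Figure D5:**
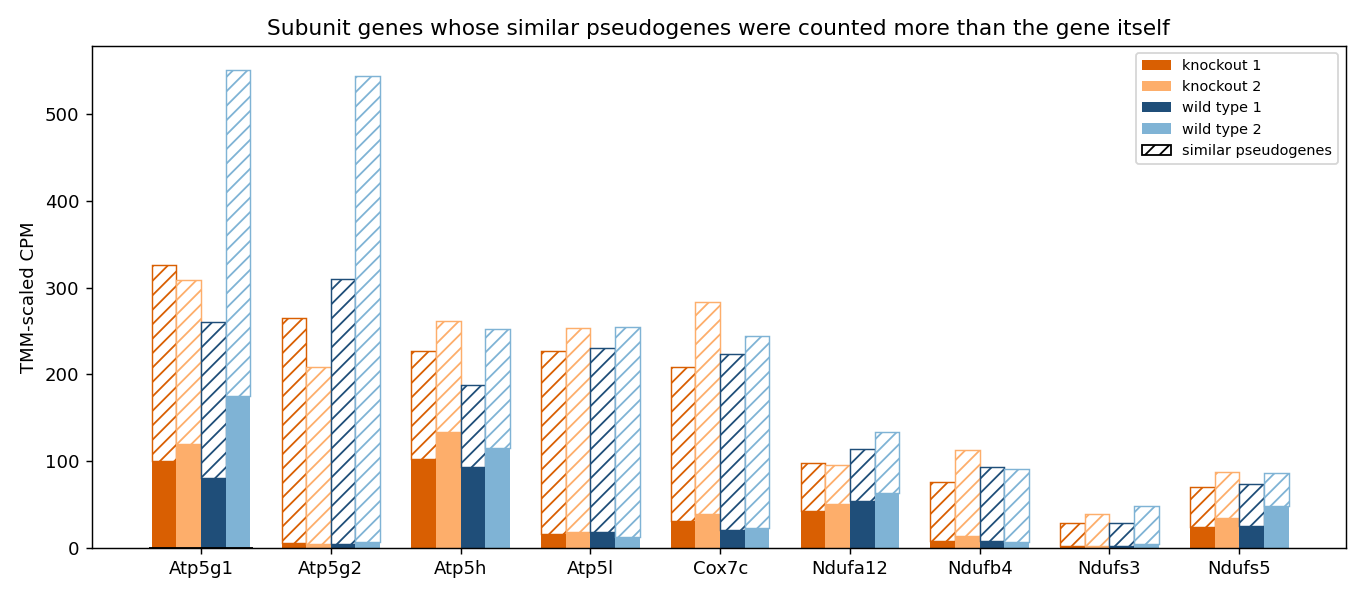
TMM-scaled CPM on the y axis of the 9 subunit genes on the x axis whose similar pseudogenes held more counts than the gene, with a bar for each library (filled part, the gene, and hatched part, its pseudogenes). The filled part is small for Atp5g2, Atp5l, Cox7c, Ndufb4 and Ndufs3.

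The subunits encoded by mitochondrial DNA stood on the other side. All 13 had a log2 fold change above 0 (median 1.09), and in 9 both knockout values were the highest, against 21.9% of all tested genes. Their median was 0.67 with wild type replicate 2 left out and 0.59 with knockout replicate 2 left out, where 12 were above 0. By edgeR 0 of them passed, with 2 higher at an unadjusted p under 0.05, against 3.95% of all tested genes. They held 9.75% and 16.5% of raw counts in knockout and 8.6% and 4.1% in wild type, so wild type replicate 2 had the lowest share. The complex IV gene mt-Co1 had 32401 and 55552 CPM in knockout and 23987 and 14690.0 CPM in wild type (log2 fold change 1.19, SE 0.88, edgeR adjusted p = 0.716, and 0.75 without knockout replicate 2). The complex V gene mt-Atp6 had 6710.5 and 11746 CPM in knockout and 891 and 793 CPM in wild type (log2 fold change 3.45, SE 0.65, edgeR adjusted p = 0.424, DESeq2 adjusted p = 3.4e-14). Its counts and this fold change are uncertain, because the nuclear copy Gm10925 matches 99.6% of its transcript. The copy held 114301 and 195475 counts in knockout and 82913 and 58421 in wild type. For mt-Atp6 itself these were 108989 and 186578 in knockout and 16396 and 12230 in wild type, so the split between gene and copy differed by group. The sum of gene and copy was not fitted. Together with 11 similar nuclear copies the mitochondrially encoded subunits held 12.8% and 21.5% of counts in knockout and 11.2% and 5.97% in wild type. When mitochondrially encoded genes were left out before scaling, the median of the nuclear members was -0.36.

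Genes that build the complexes were split between the directions, and their counts for complexes I and IV moved with wild type replicate 2. Of 18 complex I assembly factor genes 13 had a log2 fold change below 0 (median -0.16), and of 23 for complex IV 11 did (median 0.00). Without wild type replicate 2 these were 7 of 18 (median 0.06) and 9 of 23 (median 0.24). For complexes II, III and V the counts were 2 of 4, 3 of 6 and 1 of 4, or 3, 2 and 1 without that library. Uqcc2, an assembly factor of complex III, had 29.1 and 32.9 CPM in knockout and 60.6 and 79.4 CPM in wild type (log2 fold change -1.18, SE 0.31, edgeR adjusted p = 0.545). Tmem242, which takes part in ATP synthase assembly, had 39.1 and 37.1 CPM in knockout and 68.3 and 78 CPM in wild type (-0.94, SE 0.29), and the complex I assembly methyltransferase gene Ndufaf7 had 32.4 and 28.1 CPM against 49.7 and 49.3 CPM in wild type (-0.71, SE 0.29). In all 3 genes the groups did not overlap, and none passed edgeR's adjusted threshold. These genes were named because they had the smallest p of their lists. Both knockout values were the lowest in 5 of 18 assembly factor genes for complex I, 2 of 6 for complex III and 1 of 4 for complex V. This order held for 20.1% of all tested genes.

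Among genes that feed the chain, 13 of 17 for electron carriers and ubiquinone synthesis had a log2 fold change below 0 (median -0.11). Without wild type replicate 2 only 6 did, and the median turned to 0.13. Of 13 other citric acid cycle genes 11 did (median -0.37, or -0.14 without wild type replicate 2). Fh1, which encodes fumarase, had 155 and 206 CPM in knockout and 253 and 432 CPM in wild type (log2 fold change -0.93, SE 0.39, edgeR adjusted p = 0.6, and -0.49 without wild type replicate 2). Regulators of respiratory genes leaned the other way, with 6 of 8 tested genes above 0 (median 0.24). Their median was 0.08 without wild type replicate 2, with 5 of 8 above 0, and 0.52 without wild type replicate 1. Pprc1, a coactivator of the PGC-1 family, had 54.4 and 55.9 CPM in knockout and 29.2 and 36.9 CPM in wild type (log2 fold change 0.74, SE 0.30, edgeR adjusted p = 0.591). The transcription factor gene Yy1 and the coactivator genes Ppargc1a and Ppargc1b were also higher in both knockout libraries, at 0.40, 0.21 and 0.47. Yy1 was at 0.09 without wild type replicate 2 and Ppargc1a at 0.05 without wild type replicate 1. Both knockout values were thus the highest in 4 of 8 tested regulators, where 21.9% of all tested genes had this order. The transcription factor genes Nrf1 and Gabpa overlapped between groups, at -0.11 and 0.27, and the signs turned to 0.06 without knockout replicate 2 and -0.18 without wild type replicate 2. Gabpa shares exon bases with the complex V gene Atp5j on the opposite strand, which had 194 and 318 CPM in knockout and 181 and 226 CPM in wild type (log2 fold change 0.33, SE 0.37, and -0.07 without knockout replicate 2).

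Promoters were read from RefSeq (GRCm38.p6) in windows of 250 bases before to 50 bases after each start, which matched 68 of the 85 symbols. Motifs of factors known for respiratory genes were searched on both strands. The NRF1 letters, which are GCGC, any base and TGCGC, were found for 17 of the 68 members (25.0%), against 7.17% of 17491 protein-coding genes with a window. The ETS letters CCGGAAG were found for 16 (23.5%, against 12.9%) and the YY1 letters AAGATGGC for 10 (14.7%, against 3.57%). The estrogen-related receptor letters TCAAGGTCA were found for 2 (2.94%, against 0.377%). The E-box CACGTG, which MYC can bind, was found for 6 (8.82%, against 8.91%), and the hypoxia response core ACGTG, which lies within that E-box, for 18 (26.5%, against 23.2%). NRF1 letters occurred in windows of all 5 complexes, and YY1 letters in windows of complexes I and V. Letters in a window are a description, and binding was not measured.

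For each complex, the window is printed of the member with the smallest unadjusted p among those with a window, so that the genes described above can be set beside their starts. Every motif searched is in capitals, read 5′ to 3′ on the gene's strand.
Ndufv3 (complex I, chr17:31519865-31520164, plus strand): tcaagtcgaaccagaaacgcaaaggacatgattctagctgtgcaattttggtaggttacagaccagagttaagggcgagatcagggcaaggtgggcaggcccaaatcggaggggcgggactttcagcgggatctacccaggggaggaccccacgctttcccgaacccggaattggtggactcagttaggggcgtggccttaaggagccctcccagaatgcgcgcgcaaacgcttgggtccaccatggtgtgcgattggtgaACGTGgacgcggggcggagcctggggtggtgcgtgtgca
Sdhd (complex II, chr9:50603800-50604099, minus strand): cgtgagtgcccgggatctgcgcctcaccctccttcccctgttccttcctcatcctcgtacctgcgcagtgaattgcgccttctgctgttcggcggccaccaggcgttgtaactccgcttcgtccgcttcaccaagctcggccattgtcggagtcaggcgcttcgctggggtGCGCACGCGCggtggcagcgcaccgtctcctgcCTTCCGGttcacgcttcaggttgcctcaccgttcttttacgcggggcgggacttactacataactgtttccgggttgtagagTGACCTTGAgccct
Uqcrh (complex III, chr4:116075021-116075320, minus strand): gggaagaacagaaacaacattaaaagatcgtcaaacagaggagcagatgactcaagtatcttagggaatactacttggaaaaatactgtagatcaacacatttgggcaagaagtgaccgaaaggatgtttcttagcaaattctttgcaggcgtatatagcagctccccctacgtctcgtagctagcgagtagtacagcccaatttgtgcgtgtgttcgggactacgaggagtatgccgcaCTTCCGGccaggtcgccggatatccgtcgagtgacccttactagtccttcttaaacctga
Cox7a2l (complex IV, chr17:83514284-83514583, minus strand): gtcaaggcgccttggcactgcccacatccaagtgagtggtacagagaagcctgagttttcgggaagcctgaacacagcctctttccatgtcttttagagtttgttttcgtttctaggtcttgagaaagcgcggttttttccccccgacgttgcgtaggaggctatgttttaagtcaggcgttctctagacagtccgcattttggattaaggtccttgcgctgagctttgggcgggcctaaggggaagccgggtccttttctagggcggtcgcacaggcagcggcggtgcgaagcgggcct
Atp5j2 (complex V, chr5:145191492-145191791, minus strand): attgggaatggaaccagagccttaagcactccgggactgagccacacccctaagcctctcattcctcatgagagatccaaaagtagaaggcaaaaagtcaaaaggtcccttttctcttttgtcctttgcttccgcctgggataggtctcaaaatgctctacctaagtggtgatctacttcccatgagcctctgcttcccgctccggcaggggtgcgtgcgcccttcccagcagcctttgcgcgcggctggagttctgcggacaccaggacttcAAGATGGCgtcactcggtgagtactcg
In the Ndufv3 window the capitals are the hypoxia response core. In the Sdhd window they are the NRF1, ETS and estrogen-related receptor letters, in the Uqcrh window the ETS letters and in the Atp5j2 window the YY1 letters. No searched motif lay in the Cox7a2l window. The RefSeq starts of Cox7a2l and Atp5j2 lay 2997 and 521 bases from the starts of these genes in GENCODE M21.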

How the data were processed

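Messenger RNA was measured in bulk liver tumours of 4 mice, 2 per group. The authors deposited raw counts and FPKM per gene for each library in 1 table of 55487 Ensembl identifiers. The submitters' processing notes name HISAT2, StringTie, edgeR and SAMtools 1.3.1 and build mm10, but give no roles. The FPKM deposited by the authors, set against counts and library totals, implied the same length in all libraries to within 1%. This held for 100.0% of 14371 genes with at least 10 counts in each library. The implied lengths were not checked against an annotation, and the FPKM served only for levels per length. Symbols, gene types and spans came from GENCODE M21, which held 55227 of the identifiers.

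Counts of all genes were filtered with filterByExpr, which kept 16310 genes. After TMM scaling they entered the quasi-likelihood test of edgeR 4.0.16 (R 4.3.3), which is two-sided, and p-values were adjusted over all of these genes (Benjamini-Hochberg, threshold 0.05). CPM are TMM-scaled. With 2 libraries against 2, an exact two-sided permutation p cannot fall below 0.333, so single genes were tested only in this fit. The floor of 3 counts covers counting error only. Alternatives were DESeq2 1.42.0, limma-voom (limma 3.58.1), other scalings and filters, a replicate block and leaving out each library, which takes the spread of the lone sample from the other group. Adding pseudogene counts (blastn 2.17.0) was chosen after seeing the data. The edgeR step was tested on simulated data.

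No source used here states the strandedness, and exons of 29 members overlap those of another gene, on the opposite strand for 26 of them. Members and lists were chosen with earlier results of these data known. Genes named were, per complex, the 4 with the smallest p, those with the highest and lowest FPKM, the catalytic core and the isoform families, and for other lists up to 3 with the smallest p. Atp5j, Cox6c, Ndufb4, Ppargc1a, Nrf1, Gabpa, mt-Co1, the stellate cell markers beyond the first 3 and the pseudogenes were chosen after their values were seen. Of the genes named by this rule, 1 is not reported here.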

Additional observations from a re-analysis of the deposited data

How the results depend on the processing

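Genes called over the whole table numbered 0 by edgeR, 148 by DESeq2, 1 by limma-voom, 1 with library totals and 4 with a replicate block, and 0 to 409 with a library left out. Called members numbered 0 by edgeR and limma-voom, 1 by DESeq2 and 0 to 3 with a library left out, where the 3 were Cox4i2, Cox7a2l and Atp5j2. With a library left out, the median log2 fold change ran from -0.58 to -0.07 over the members, -0.58 to -0.10 in complex I, -0.57 to -0.29 in complex II, -0.44 to -0.03 in complex III, -0.72 to -0.07 in complex IV and -0.45 to -0.01 in complex V. The scalings, filters, other tests, replicate block and pseudogene counts moved each of these medians by less than the spread between libraries. The median over all tested genes stayed between -0.03 and 0.04 under each setting run.

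Among the named subunit genes the sign turned with a library left out for Atp5g1 (-0.72 to 0.44), Atp5g2 (-0.38 to 0.21), Atp5h (-0.02 to 0.34), Atp5j (-0.07 to 0.61), Atp5l (-0.09 to 0.44), Atp5o (-0.78 to 0.06), Cox4i1 (-0.12 to 0.52), Cox5a (-0.72 to 0.03), Cox6a1 (-0.94 to 0.18), Cox7b (-0.02 to 0.29), Cox8a (-0.37 to 0.41), Ndufs3 (-0.95 to 0.02), Ndufs5 (-0.76 to 0.24), Ndufs7 (-0.57 to 0.21), Ndufs8 (-0.38 to 0.24), Ndufv1 (-0.92 to 0.17), Uqcrc1 (-0.63 to 0.19) and Uqcrc2 (-0.25 to 0.11), each with its range over the 4 fits. Cox8a, at -0.01, also turned to 0.01 with library totals, 0.02 with a mean of at least 5 CPM, 0.03 by limma-voom and 0.04 with the replicate block, and Atp5l turned to -0.02 with pseudogene counts added. The cause of these turns was not tested. Libraries share only a replicate number, and deviations of same-numbered libraries from their group means correlated at r = 0.121 across genes. With 2 libraries per group, both pairs give this same value by construction. The replicate block changed no call among the members. With 2 mice per group, differences within the intervals given were not detectable.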
